A study of Homo sapiens with 27 samples.

Results

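The FOXO transcription factors FOXO1, FOXO3 and FOXO4 and 7 genes tied to FOXO activity and cell cycle exit, PIK3IP1, TXNIP, BCL6, CCNG2, TP53INP1, N4BP2L1 and SESN1, were followed through inhibition of the MET kinase. These 10 genes were taken by symbol from the 12386 genes tested. Each was represented by the brightest of its single-gene probe sets over 27 arrays, and its remaining probe sets served as a check. All 10 passed the filter on dim signal. Together they had 44 single-gene probe sets, of which 36 were kept.

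RNA from 3 human cancer lines was read on one-colour arrays in 9 groups, each with 3 samples that the labels call biological replicates. The submitters call MKN-45 (gastric cancer) and EBC-1 (lung cancer of the non-small cell kind) addicted to MET. HCC827, also from lung, carries activated c-Met without such dependence and served as the negative control. SGX-523 is a selective small molecule that blocks the MET kinase. Each line was given the solvent DMSO or the drug (1 uM), the latter with harvest after 24 h or 48 h. No time is given for DMSO. The 24 h and 48 h groups of a line therefore share 1 set of 3 DMSO arrays, and their comparisons are not independent of each other. With no DMSO arrays of known time, drug effects and changes with time in culture cannot be told apart. This includes the 48 h changes in HCC827 and all comparisons of 48 h with 24 h.

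FOXO factors are forkhead transcription factors held in check by growth factor signalling. PI3 kinase activates AKT, AKT phosphorylates FOXO proteins, and the phosphorylated proteins are bound by 14-3-3 proteins and leave the nucleus. When the pathway is blocked, FOXO proteins return to the nucleus and switch on genes of cell cycle exit, stress defence and feedback on receptors. Most of this regulation acts on the protein, which these arrays do not measure.

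Deposited log2 signals ran from 1.87 to 14.38, and precision is limited by the 3 arrays per group. Array medians lay between 5.71 and 5.73 in HCC827 and between 5.02 and 5.14 elsewhere. Array pairs across that divide shared a median of 163 distinct values, against 1056 within EBC-1 and MKN-45 and 1027.5 within HCC827, so levels in HCC827 may carry a difference in normalization. HCC827 SGX-523 24 h replicate 3 stood apart. Its correlation with the other HCC827 arrays was 0.9623 to 0.9667, against at least 0.9958 within the groups that exclude it. Its residual SD was 0.367, against at most 0.115 outside its group. Epithelial markers reached the array median on all arrays of a line for 5 of 6 genes in EBC-1 and for 6 of 6 in MKN-45 and in HCC827; the exception was CDH1 in EBC-1, at 3.77. Markers of other cell types stayed below the median on every array for 4 of 6 fibroblast, 3 of 5 leukocyte and 2 of 4 endothelial genes, among them PTPRC and COL1A1. Among the rest, LUM was at 11.31 and CD14 at 6.44 in EBC-1, and LYZ was at 11.51 in MKN-45. VWF (5.48) was above the median on all 9 arrays of EBC-1, and PDGFRB (5.96) on all 9 of HCC827. On all 9 arrays of EBC-1, labelled as lung, 3 of 4 lung lineage genes and 3 of 6 gastric and intestinal ones were above the median, the latter CDX2 (8.72), CDH17 (11.97) and GATA6 (7.96). In MKN-45, labelled as gastric, the counts were 3 of 4 and 4 of 6, and in HCC827 3 of 4 and 1 of 6. The lung genes counted were NKX2-1, SFTPC and NAPSA. They were not far above the median in EBC-1 (5.59, 5.81 and 5.78) and MKN-45 (5.68, 5.65 and 6.19). In HCC827 they were at 7.02, 6.59 and 9.57. Of 3 squamous genes, 0 were above the median on all arrays in EBC-1, 1 in MKN-45 and 0 in HCC827. The log2 ratio of 3 prime to 5 prime ACTB control probe sets was higher on the treated arrays of EBC-1 (3.76 and 3.89 against 3.36 in DMSO) and MKN-45 (3.68 and 4.16 against 3.53), and in HCC827 it was 2.65 and 2.33 against 2.08. The median of 45 external control probe sets moved the same way, from 7.81 to 8.12 and 8.15 in EBC-1 and from 7.83 to 8.18 at both times in MKN-45, but fell from 7.85 to 7.75 and 7.78 in HCC827. The part of these values in the results was not tested. In RNA from whole cultures, a change in all cells and a change in the share of cells that express a gene cannot be told apart.

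FOXO proteins bind DNA at a core that reads GTAAACA, with ATAAACA as a common variant. Both were searched on both strands of RefSeq promoter windows (GRCh38.p14), each running from 250 bases before to 50 bases after a transcription start. Of the 10 genes, 9 matched the table (all but TP53INP1), with 17 windows in all because several have more than 1 start. Of these 9, 4 had a core in at least 1 window (TXNIP, PIK3IP1, FOXO3 and FOXO4) as against 8.98% of the 27305 genes in the table, which hold 35116 windows and so fewer per gene. Of these 4 genes, 3 rose strongly under SGX-523. Genes searched without a core rose too, among them N4BP2L1 (3.60 in EBC-1 and 3.38 in MKN-45 at 24 h) and BCL6 (2.03 and 2.45), while FOXO1 fell in MKN-45. A link between core and response was not tested. The sites are shown on the strand of the gene, with the core in capitals.
TXNIP: cgggctcctgGTAAACAaggaccgggc
PIK3IP1: aaagagaggcTGTTTACcagaacagca
FOXO3: cgagcgaaacATAAACAaacgcacgca
FOXO4: ccggcgagtgGTAAACAgagacgtcag

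The TXNIP site is at chr1:145996687-145996713 on the minus strand, and its core begins at base -124 from the start. The PIK3IP1 site is at chr22:31292456-31292482 on the minus strand and reads as the reverse complement of the core. It begins at base 17 of the transcribed part. The FOXO3 site is at chr6:108560673-108560699 on the plus strand, with the core at base -234. The FOXO4 site is at chrX:71095864-71095890 on the plus strand, with the core at base 24 of the transcribed part. Over all windows of this length, GTAAACA was found in 3.42% and ATAAACA in 4.24%. The insulin response variant CAAAACA, found in 4.92% of windows, was in none of the 17. The E-box CACGTG, found in 7.26%, was in a window of CCNG2 at base -30. A match shows the letters, not binding, and the arrays hold no binding data. The 250 bases before the start of TXNIP, chr1:145996580-145996829 on the minus strand, are given as the context of the site in the gene with the smallest standard errors, with the core in capitals.
TXNIP: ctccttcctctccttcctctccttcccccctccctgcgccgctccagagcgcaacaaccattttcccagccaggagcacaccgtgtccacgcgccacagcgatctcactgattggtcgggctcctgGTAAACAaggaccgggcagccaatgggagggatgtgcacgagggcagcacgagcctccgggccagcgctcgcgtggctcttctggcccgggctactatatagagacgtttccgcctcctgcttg

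The question put to the data was how these genes answer when MET is blocked in lines that depend on it and in one that does not. In EBC-1, 9 of the 10 rose at 24 h and the same 9 at 48 h, all but FOXO4, whose call depended on the fit. In MKN-45, 9 rose at 24 h and 8 at 48 h, while FOXO1 fell at both times. In HCC827 none was called at 24 h, and 7 rose at 48 h. Calls rest on limma, with Benjamini-Hochberg adjustment across every gene tested and a threshold of 0.05. The background was high. Of all genes, 31.2% were called higher and 28.1% lower in EBC-1 at 24 h, and 32.8% and 28.9% at 48 h. In MKN-45 these shares were 33.4% and 26.9% at 24 h and 36.4% and 26.2% at 48 h. In HCC827 at 48 h they were 11.6% and 10.7%. In HCC827 at 24 h, 0.0323% were called in either direction, and 3 of the 10 genes had an unadjusted limma p under 0.05. The share of all genes at that unadjusted threshold was not counted. Counts at it, here and below, therefore have no background to be set against. The HCC827 comparison at 24 h depends on the array that stood apart: over all genes it gave 4 calls with all arrays, 20 without replicate 3, and 2393 and 2674 without replicate 1 and replicate 2. The median change over the 10 genes was 1.94 and 1.87 in EBC-1 (24 h and 48 h), 1.77 and 1.84 in MKN-45, and -0.06 and 0.41 in HCC827. The median over all genes tested was between -0.0088 and 0.067 in these comparisons. Levels are log2 signals, and changes are differences of group means of log2 signal (SGX-523 less DMSO, 3 arrays each) with the SE of the fit.

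**Figure D1:**
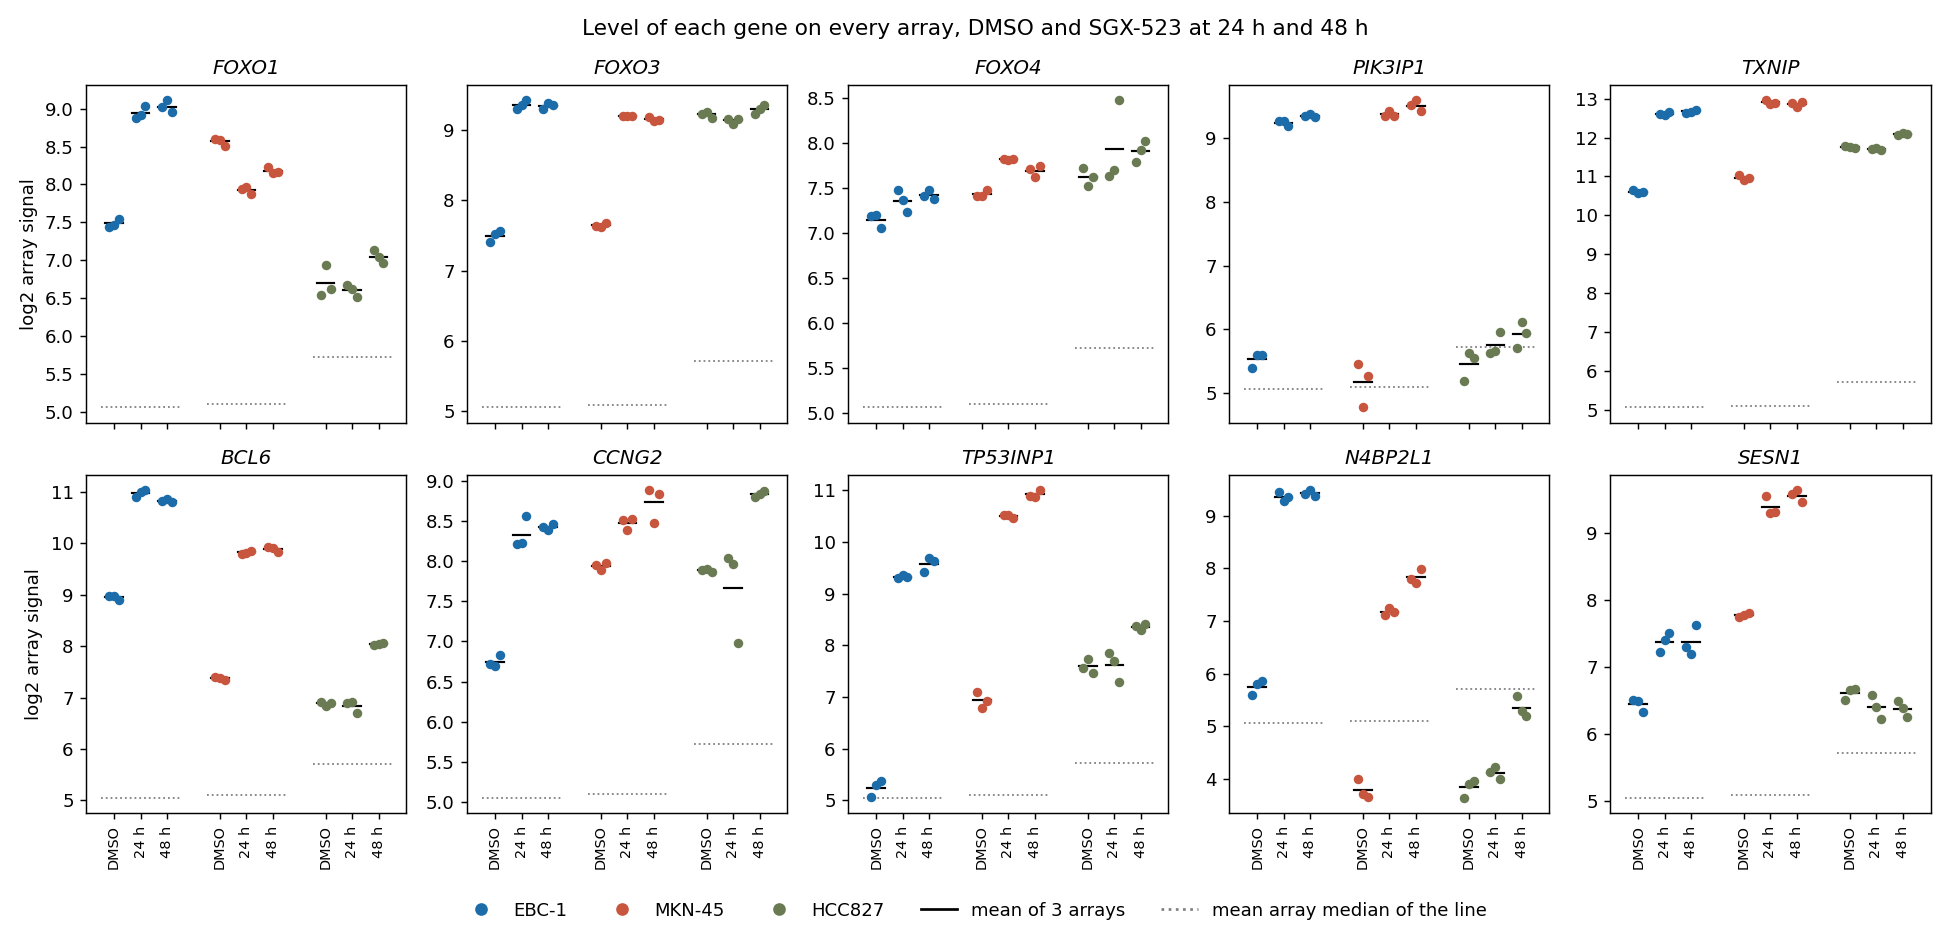
Log2 array signal of the 10 genes on each of the 27 arrays, by cell line and treatment (points: arrays; black bars: mean of 3; dotted lines: mean array median of the line; vertical scales differ and do not start at 0). FOXO1 rises in EBC-1 and falls in MKN-45, and N4BP2L1 lies under the dotted line in MKN-45 DMSO and on all HCC827 arrays.

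**Figure D2:**
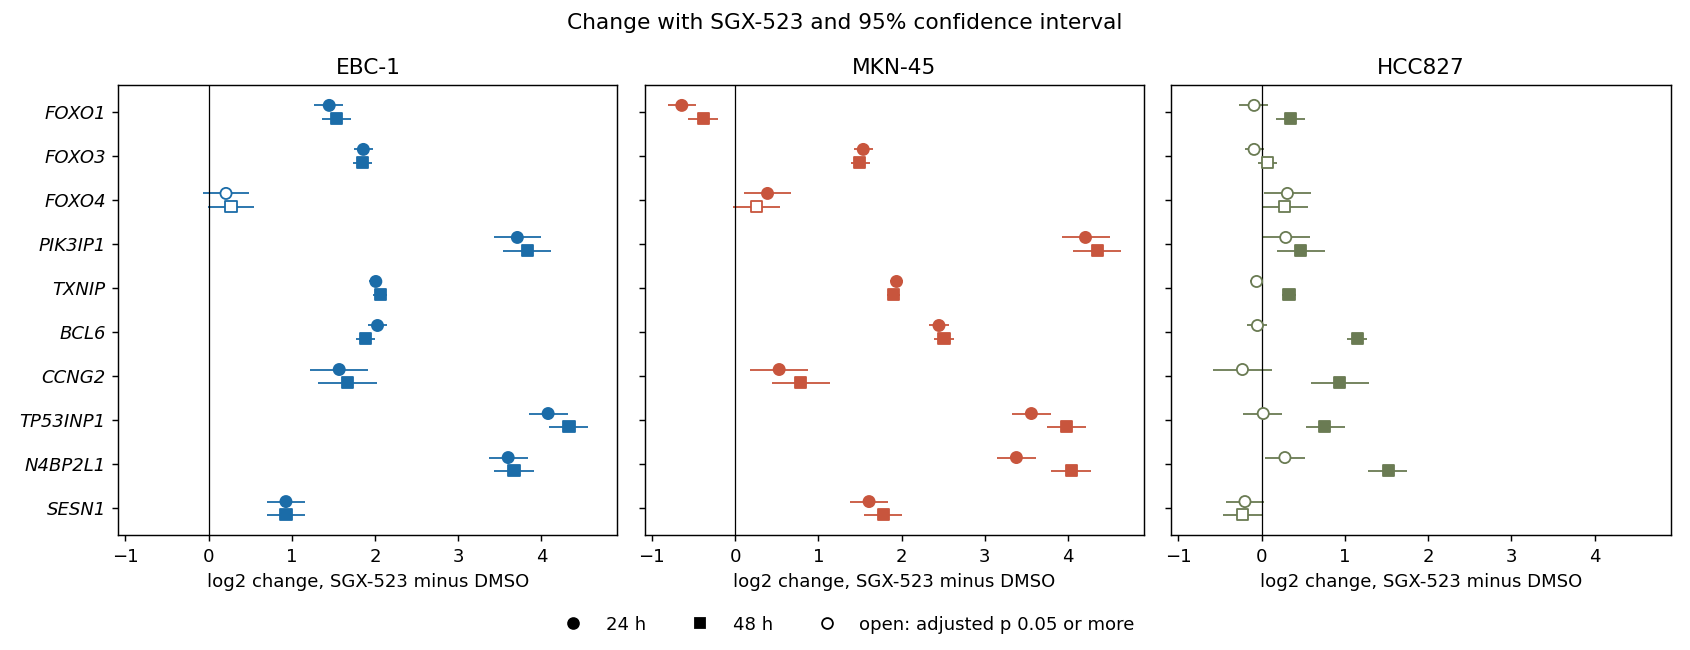
Log2 change with SGX-523 against DMSO and its 95% confidence interval for the 10 genes in each line (circles: 24 h; squares: 48 h; open symbols: adjusted p of 0.05 or more). PIK3IP1, TP53INP1 and N4BP2L1 lie between 3.38 and 4.35 in EBC-1 and MKN-45, and 7 of the 10 genes are called in HCC827, all at 48 h.

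Among the factors themselves, FOXO3 rose in both MET-dependent lines. FOXO3 is widely expressed and is a main effector of the PI3 kinase and AKT axis. Its level on the EBC-1 DMSO arrays was 7.41, 7.52 and 7.56, and with SGX-523 it was 9.30, 9.35 and 9.42 at 24 h and 9.30, 9.38 and 9.35 at 48 h. In MKN-45 it was 7.64, 7.62 and 7.68 in DMSO, 9.20, 9.19 and 9.19 at 24 h, and 9.18, 9.13 and 9.14 at 48 h. All treated arrays of both lines lay above all DMSO arrays of their line by more than 1 log2 unit. The change was 1.86 ± 0.054 in EBC-1 at 24 h (adjusted p = 1.92e-19), 1.85 at 48 h, 1.54 ± 0.054 in MKN-45 at 24 h (adjusted p = 8.77e-18) and 1.5 at 48 h. HCC827 had FOXO3 at 9.23, 9.26 and 9.17 in DMSO, 9.16, 9.08 and 9.16 at 24 h, and 9.22, 9.29 and 9.36 at 48 h. Its changes there were -0.09 (95% interval -0.20 to 0.03, adjusted p = 0.331) and 0.07 (-0.04 to 0.18, adjusted p = 0.418). All 3 single-gene probe sets of FOXO3 rose in EBC-1 and MKN-45, by 1.11 to 1.86. A further 5 probe sets are annotated to both FOXO3 and its pseudogene FOXO3B, and the array cannot separate these transcripts. All 5 were called higher in EBC-1 at both times, and 4 of 5 in MKN-45.

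FOXO1 moved in opposite directions in the MET-dependent lines. FOXO1 is the family member best known for insulin signalling and gluconeogenesis. In EBC-1 its level was 7.44, 7.47 and 7.55 in DMSO, 8.87, 8.91 and 9.03 at 24 h, and 9.02, 9.11 and 8.95 at 48 h, a rise of 1.45 ± 0.083 (adjusted p = 1.12e-13) and 1.54. In MKN-45 it was 8.60, 8.59 and 8.51 in DMSO, 7.94, 7.96 and 7.88 at 24 h, and 8.23, 8.15 and 8.17 at 48 h. The groups did not overlap in either line: every treated array was above DMSO in EBC-1 and below it in MKN-45. MKN-45 changed by -0.64 ± 0.083 at 24 h (adjusted p = 2.95e-07), while at 48 h the value was -0.38 (adjusted p = 0.000285). The 48 h level was higher than the 24 h level by 0.26 (adjusted p = 0.0247). That call was lost without MKN-45 SGX-523 24 h replicate 1 or 3 or MKN-45 SGX-523 48 h replicate 1 or 3, with adjusted p of 0.0508, 0.0911, 0.0873 and 0.0508 in that order. The difference between the responses, EBC-1 minus MKN-45, reached 2.09 ± 0.12 at 24 h (adjusted p = 5.08e-13), with 1.92 at 48 h. In DMSO, FOXO1 was lower in EBC-1 than in MKN-45 by 1.08 log2 units (difference -1.08, adjusted p = 1.89e-11). Both kept probe sets of FOXO1 gave the same directions, at 1.45 and 1.57 in EBC-1 and at -0.64 and -0.52 in MKN-45 at 24 h. In HCC827 the levels were 6.54, 6.94 and 6.62 in DMSO, 6.67, 6.62 and 6.52 at 24 h, and 7.14, 7.04 and 6.96 at 48 h. The 48 h change was 0.35 (adjusted p = 0.00345). It had adjusted p = 0.107 when HCC827 was fitted apart from the other lines, and the second probe set (0.28) was not called.

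FOXO4 changed less than FOXO1 and FOXO3 in EBC-1, and its change was at most 0.39 in any line. In EBC-1 its levels were 7.19, 7.2 and 7.06 in DMSO, 7.48, 7.37 and 7.23 at 24 h, and 7.41, 7.48 and 7.38 at 48 h. In MKN-45 they were 7.41, 7.41 and 7.48, then 7.83, 7.82 and 7.83, then 7.71, 7.62 and 7.75. The treated arrays of both lines lay above their DMSO arrays, by narrow margins in EBC-1. The change passed the test in MKN-45 at 24 h (0.39 ± 0.13, adjusted p = 0.0133), but not with quantile normalization (adjusted p = 0.0579). It did not pass in EBC-1 (0.21 and 0.27, adjusted p = 0.194 and 0.0839), in MKN-45 at 48 h (0.26, adjusted p = 0.097) or in HCC827 (0.31 and 0.28, adjusted p = 0.22 and 0.138). The spread of FOXO4 came mostly from HCC827 SGX-523 24 h, where the arrays read 7.64, 7.70 and 8.48 and replicate 3 was the high one. Without that array, FOXO4 was called higher in EBC-1 at 24 h (adjusted p = 0.01) and, at 48 h, in all 3 lines (adjusted p = 0.00106 in EBC-1, 0.00157 in MKN-45 and 0.00162 in HCC827). The HCC827 change at 24 h was then 0.04, whereas it was called at 0.46 (adjusted p = 0.0307) without replicate 1 and at 0.43 (adjusted p = 0.0367) without replicate 2.

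PIK3IP1, TP53INP1 and N4BP2L1 rose most of the 10 genes in EBC-1 and MKN-45. PIK3IP1 is a membrane protein that inhibits PI3 kinase. In EBC-1 its level was 5.39, 5.60 and 5.60 in DMSO, 9.27, 9.27 and 9.19 at 24 h, and 9.35, 9.38 and 9.33 at 48 h. In MKN-45 it was 5.45, 4.77 and 5.27 in DMSO, 9.35, 9.43 and 9.35 at 24 h, and 9.52, 9.60 and 9.43 at 48 h. Both lines thus started close to the array median, with MKN-45 DMSO replicate 2 under it, and every treated array was above 9. From such a start the size of a change is poorly measured. The change was 3.71 ± 0.14 in EBC-1 at 24 h (adjusted p = 1.7e-17), 3.83 at 48 h, 4.21 in MKN-45 at 24 h (adjusted p = 1.83e-18) and 4.35 at 48 h. The size also depends on the probe set. All 7 kept probe sets rose in these comparisons, but the other 6 rose by 0.79 to 1.60 in EBC-1 at 24 h and by 0.84 to 1.57 in MKN-45. The response was larger in MKN-45 (EBC-1 minus MKN-45 -0.50 at 24 h, adjusted p = 0.0411, and -0.52 at 48 h), but without MKN-45 DMSO replicate 2 these differences shrank to -0.30 (adjusted p = 0.173), and to -0.33 at 48 h (adjusted p = 0.121). Leaving out any of 8 other EBC-1 or MKN-45 arrays also ended the 24 h call, and 3 others the 48 h call. In HCC827, PIK3IP1 was at 5.18, 5.63 and 5.54 in DMSO, 5.63, 5.65 and 5.96 at 24 h, and 5.71, 6.11 and 5.94 at 48 h. Its DMSO arrays there all lay under the array median (5.72), so the size of a change is poorly measured here too. The 48 h change of 0.47 was called (adjusted p = 0.0144), by 1 of the 7 kept probe sets alone. Without HCC827 DMSO replicate 1 it was 0.33 (adjusted p = 0.115), leaving out replicate 2 of HCC827 SGX-523 48 h gave 0.37 (adjusted p = 0.0951), and with HCC827 fitted apart its adjusted p was 0.104.

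TP53INP1 is a stress-induced protein that acts with p53 and in autophagy. Its level in EBC-1 was 5.07, 5.30 and 5.38 in DMSO, 9.31, 9.36 and 9.33 at 24 h, and 9.42, 9.69 and 9.63 at 48 h. In MKN-45 it was 7.10, 6.79 and 6.92, then 10.52, 10.52 and 10.46, then 10.9, 10.87 and 11. Treated and DMSO arrays were separated by more than 3 log2 units in both lines. The change was 4.08 ± 0.11 in EBC-1 at 24 h (adjusted p = 5.38e-20, from a start close to the array median), 4.33 at 48 h, 3.56 in MKN-45 at 24 h and 3.98 at 48 h. The 24 h response was larger in EBC-1 by 0.52 (adjusted p = 0.0101), or by 0.26 (adjusted p = 0.0721) with the mean of both probe sets. TP53INP1 rose further from 24 h to 48 h in MKN-45 (0.42, adjusted p = 0.00697), though not by the mean of its probe sets (0.21, adjusted p = 0.0739). In HCC827 it was at 7.57, 7.74 and 7.47, then 7.86, 7.70 and 7.29, then 8.37, 8.30 and 8.41, a change of 0.76 at 48 h (adjusted p = 1.88e-05). The dimmer of its 2 probe sets was called in none of the 6 comparisons with DMSO, with changes of -0.06 and 0.16 in EBC-1 and -0.07 and -0.08 in MKN-45, so the rise of TP53INP1 rests on 1 probe set.

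N4BP2L1 encodes a little-studied protein named for its likeness to N4BP2. Its level in EBC-1 was 5.60, 5.81 and 5.86 in DMSO, 9.45, 9.28 and 9.35 at 24 h, and 9.42, 9.48 and 9.38 at 48 h. In MKN-45 it was 4.0, 3.72 and 3.66, then 7.11, 7.24 and 7.18, then 7.79, 7.73 and 7.98. In HCC827 it was 3.65, 3.90 and 3.97, then 4.13, 4.22 and 4.0, then 5.58, 5.30 and 5.19. The MKN-45 DMSO arrays and all HCC827 arrays were under the array median, where sizes of change are poorly measured. The change was 3.60 ± 0.11 in EBC-1 at 24 h and 3.67 at 48 h, and in MKN-45 it grew from 3.38 to 4.04 (48 h minus 24 h 0.66, adjusted p = 9.87e-05). In HCC827 at 48 h N4BP2L1 rose (1.52 ± 0.11, adjusted p = 9.33e-10), with all arrays of the line under the median, so only the direction is read. A second probe set gave similar sizes (3.72 in EBC-1 and 3.28 in MKN-45 at 24 h), and the dimmest gave 1.99 and 0.63, the latter not called.

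TXNIP, which binds thioredoxin and restrains glucose uptake, had the smallest standard errors of the 10 genes. In EBC-1 it was at 10.65, 10.57 and 10.60 in DMSO, 12.60, 12.59 and 12.66 at 24 h, and 12.64, 12.67 and 12.71 at 48 h. In MKN-45 it was at 11.05, 10.90 and 10.95, then 12.96, 12.86 and 12.89, then 12.88, 12.80 and 12.92. At each stage every EBC-1 array lay below every MKN-45 array. In DMSO the difference, EBC-1 minus MKN-45, was -0.36 (limma adjusted p = 1.04e-08). The change was 2.01 ± 0.039 in EBC-1 at 24 h (adjusted p = 1.54e-22), 2.07 at 48 h, 1.94 in MKN-45 at 24 h and 1.9 at 48 h. All 5 TXNIP probe sets rose in these comparisons, by 1.9 to 2.80. At 24 h the responses of EBC-1 and MKN-45 differed by 0.07 (adjusted p = 0.307), whereas the 48 h difference was 0.17 (adjusted p = 0.0147). The latter fell to 0.13 without MKN-45 DMSO replicate 1 (adjusted p = 0.061) or MKN-45 SGX-523 48 h replicate 2 (adjusted p = 0.0548). In HCC827, TXNIP was at 11.79, 11.77 and 11.74, then 11.71, 11.73 and 11.69, then 12.07, 12.13 and 12.08. Its 48 h change there was 0.33 ± 0.039 (adjusted p = 1.28e-06), with all 5 probe sets called.

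BCL6, a transcriptional repressor known from germinal centre B cells, rose in both dependent lines from unequal starting levels. In EBC-1 it went from 8.95 ± 0.045 (SD, n = 3) in DMSO to 10.97 at 24 h and 10.83 at 48 h. In MKN-45 it went from 7.38 ± 0.034 to 9.82 and 9.89. The change was 2.03 ± 0.057 (adjusted p = 9.43e-20) and 1.89 in EBC-1, against 2.45 (adjusted p = 3.54e-21) and 2.51 in MKN-45. All 5 probe sets rose in both lines at both times, by 1.02 to 2.63. In HCC827 the arrays read 6.92, 6.84 and 6.90 in DMSO, 6.89, 6.91 and 6.71 at 24 h, and 8.02, 8.04 and 8.07 at 48 h. The late rise was 1.15 ± 0.057 (2.23-fold, adjusted p = 4.44e-13), with 3 of the 5 probe sets called. BCL6 rose more in MKN-45 than in EBC-1 by its brightest probe set (EBC-1 minus MKN-45 -0.42 at 24 h, adjusted p = 0.000139, and -0.62 at 48 h). By the mean of all probe sets the difference was not called at either time, with 0.16 at 24 h (adjusted p = 0.187) against -0.14 later (adjusted p = 0.218), so the order of the lines depends on the probe set.

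CCNG2 encodes cyclin G2, an unusual cyclin that accumulates as cells leave the cycle. Its level rose in EBC-1 from 6.75 ± 0.068 (SD, n = 3) in DMSO to 8.33 at 24 h and 8.42 at 48 h, and in MKN-45 from 7.94 ± 0.048 to 8.47 and 8.73. The changes were 1.57 ± 0.17 (adjusted p = 9.78e-09) and 1.67 in EBC-1, against 0.53 at 24 h in MKN-45 (adjusted p = 0.00754) and then 0.79 (adjusted p = 0.0002). EBC-1 responded more than MKN-45, with a difference of 1.04 at 24 h (adjusted p = 0.000852); the 48 h difference was 0.88 (adjusted p = 0.00319). All 3 kept probe sets rose in both lines. In HCC827, CCNG2 was at 7.89, 7.90 and 7.87 in DMSO, 8.04, 7.96 and 6.98 at 24 h, and 8.80, 8.83 and 8.87 at 48 h. The low value at 24 h is replicate 3, the array that stood apart. Without it, the 24 h change in HCC827 was 0.11, in place of -0.23. The 48 h rise of 0.94 (adjusted p = 0.000185) was not distinguishable from that of MKN-45, with a difference of -0.15 ± 0.24 (MKN-45 minus HCC827, adjusted p = 0.626).

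SESN1, a sestrin that dampens mTORC1 and responds to p53 as well as to FOXO, rose more in MKN-45 than in EBC-1. It went from 6.44 ± 0.10 (SD, n = 3) to 7.38 at both times in EBC-1, and from 7.78 ± 0.030 to 9.38 and 9.55 in MKN-45. The change in EBC-1 was 0.93 ± 0.11 at each time (adjusted p = 5.32e-08 at 24 h), and those in MKN-45 were 1.61 (adjusted p = 3.11e-12) and 1.78. EBC-1 minus MKN-45 came to -0.67 at 24 h (adjusted p = 0.000963), and the 48 h value was -0.85 (adjusted p = 6.19e-05). Both SESN1 probe sets rose in both lines. In HCC827 its changes were -0.20 and -0.23 (adjusted p = 0.281 and 0.147).

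**Figure D3:**
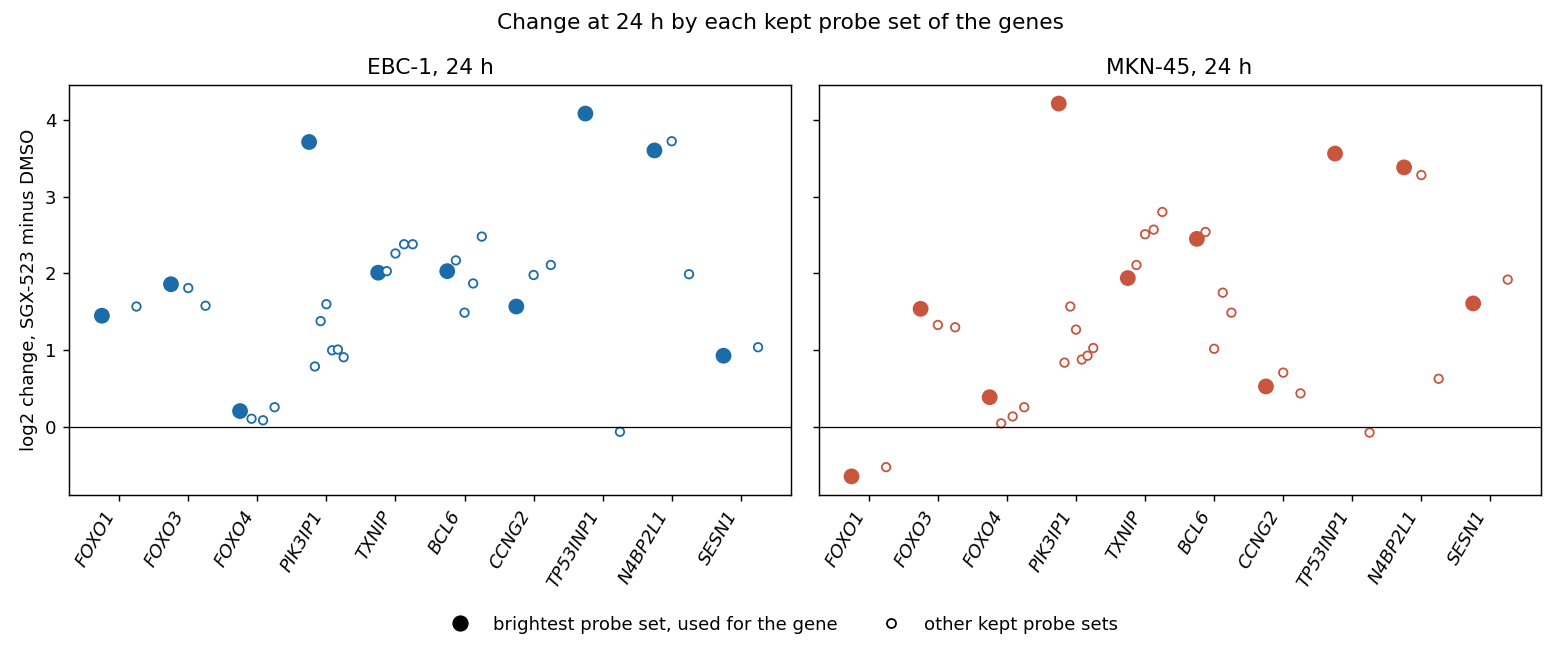
Log2 change at 24 h in EBC-1 and MKN-45 for each kept probe set of the 10 genes (filled: the brightest, used for the gene; open: the others). All probe sets of FOXO1 lie above 0 in EBC-1 and below 0 in MKN-45, while PIK3IP1 and TP53INP1 each have 1 probe set far above the rest.

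Set side by side, the response of EBC-1 differed from that of HCC827 for 9 of the 10 genes at 24 h and 9 at 48 h, against 51.6% and 48.7% of all genes. The response of MKN-45 differed from that of HCC827 for 9 genes at 24 h and 8 at 48 h, against 52.7% and 51.1%. The exceptions were FOXO4 in all 4 and CCNG2 in MKN-45 at 48 h. Without HCC827 SGX-523 24 h replicate 3, FOXO4 differed between MKN-45 and HCC827 at 24 h (0.36, adjusted p = 0.00436). FOXO1 was below HCC827 in its MKN-45 response, by -0.55 (adjusted p = 0.000348) and -0.73 (adjusted p = 1.16e-05). EBC-1 and MKN-45 differed in the response of 7 genes at 24 h and 7 at 48 h, against 42.1% and 49% of all genes. At both times FOXO1, CCNG2 and FOXO3 (0.32 at 24 h, adjusted p = 0.00167) were on the side of EBC-1, and SESN1 was on the side of MKN-45. BCL6 (-0.42 and -0.62) and PIK3IP1 (-0.50 and -0.52) were also on the side of MKN-45 by their brightest probe sets. TP53INP1 at 24 h (0.52) and TXNIP at 48 h (0.17) were on the side of EBC-1. By the mean of all probe sets, none of these last 4 was called. N4BP2L1 (-0.37) and TP53INP1 (0.34) missed the threshold at 48 h and passed it without HCC827 SGX-523 24 h replicate 3, at adjusted p of 0.034 and 0.00916.

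Most of the response in EBC-1 and MKN-45 was present by 24 h. From 24 h to 48 h, none of the 10 genes was called in EBC-1 with limma (2 at an unadjusted p under 0.05), where 11.1% of all genes were. Without HCC827 SGX-523 24 h replicate 3, which enters the shared spread, 2 were called, BCL6 (-0.14, adjusted p = 0.021) and TP53INP1 (0.25, adjusted p = 0.0222). In MKN-45, 3 rose between the times (FOXO1, TP53INP1 and N4BP2L1), where 14.9% of all genes were called higher. CCNG2 (0.26) joined them without that replicate, at an adjusted p of 0.011. TXNIP was called lower by the mean of its probe sets (-0.23, adjusted p = 0.0174), with 2 of 5 probe sets called lower. In HCC827, 7 of the 10 genes rose between 24 h and 48 h, where 15.8% of all genes were called higher. These were BCL6 (1.21 ± 0.057), N4BP2L1 (1.24), CCNG2 (1.17), TP53INP1 (0.75), FOXO1 (0.44), TXNIP (0.38) and FOXO3 (0.16, adjusted p = 0.0347). The FOXO3 value had adjusted p = 0.285 with quantile normalization, 0.0903 without HCC827 SGX-523 24 h replicate 2, and 0.0862 and 0.153 without HCC827 SGX-523 48 h replicates 2 and 3. Without HCC827 SGX-523 24 h replicate 3, FOXO4 was called too (0.25, adjusted p = 0.0165), and was of opposite sign with all arrays.

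By whether arrays overlap, treated and DMSO arrays were separate for all 10 genes in EBC-1 and in MKN-45 at both times, where this held for 70.5% and 72.5% of all genes in EBC-1 and 70.3% and 72% in MKN-45. In HCC827 they were separate for 3 genes at 24 h (background 12.3%) and for 9 at 48 h (51.3%).

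Before treatment the 10 genes already differed between EBC-1 and MKN-45, with 9 of 10 called in DMSO against 67.6% of all genes. N4BP2L1 (1.96), BCL6 (1.57) and PIK3IP1 (0.37) were higher in EBC-1, and the PIK3IP1 difference was -0.06 by the mean of its probe sets and 0.17 (adjusted p = 0.252) without MKN-45 DMSO replicate 2. Leaving out EBC-1 DMSO replicate 2 or 3 gave 0.33 (adjusted p = 0.0661 and 0.0681). TP53INP1 (-1.69), SESN1 (-1.33), CCNG2 (-1.19), FOXO1 (-1.08), TXNIP (-0.36) and FOXO3 (-0.15) were lower, the last with adjusted p = 0.111 without EBC-1 DMSO replicate 1 and 0.0563 without MKN-45 DMSO replicate 3. Against HCC827 in DMSO, 8 of 10 were called for EBC-1 and 6 for MKN-45, where 82.3% and 83.1% of all genes were. The largest of these were TP53INP1 (-2.34) and BCL6 (2.06) in EBC-1, but such levels cross the difference in normalization.

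Over the 27 arrays, after the mean of each line was subtracted, FOXO3 correlated with TXNIP (r = 0.992) and TP53INP1 (0.988), which were the genes most like it of all those tested, followed by TBCK (0.987). PIK3IP1 was most like PBLD (0.993), ACCS (0.992) and BCL2L11 (0.991), the last of which encodes the death protein BIM. FOXO1 was most like ACAA2 (0.959), CSTPP1 (0.952) and SLC8B1 (0.952), and FOXO4 most like ZNF616 (0.919), ZNF513 (0.887) and MMP19 (0.881). FOXO1 had r = 0.51 with FOXO3 and 0.10 with FOXO4. These are descriptions: the arrays share lines and treatments, and any gene with a strong response in EBC-1 and MKN-45 and a weak one in HCC827 will score high against another.

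Other genes of the pathway were read from lists drawn up by role. Of 30 further FOXO targets, 27 could be tested. In EBC-1, 20 rose and 2 fell at 24 h (median 1.47), and 21 rose and 2 fell at 48 h (1.38). In MKN-45, 19 rose and 2 fell at 24 h (0.62), and 21 rose and 5 fell at 48 h (0.50). In HCC827, none was called at 24 h with limma (5 at an unadjusted p under 0.05), and 15 rose at 48 h (0.31). Called higher were 31.2% and 32.8% of all genes in EBC-1, 33.4% and 36.4% in MKN-45, and 11.6% in HCC827 at 48 h. Called lower were 28.1% and 28.9% in EBC-1, 26.9% and 26.2% in MKN-45, and 10.7% in HCC827 at 48 h. The receptor gene ERBB3 rose by 3.49 in EBC-1 and 1.92 in MKN-45 at 24 h, the death ligand gene TNFSF10 by 3.71 and 3.22, the ubiquitin ligase gene FBXO32 by 2.63 and 0.62, and the mitophagy kinase gene PINK1 by 2.39 and 0.44. TNFSF10 in MKN-45 DMSO (4.04) and FBXO32 in EBC-1 DMSO (4.70) were under the array median, so those rises are poorly measured in size. Against the trend, the mitophagy receptor gene BNIP3 fell (-0.62 and -1.97), and CDKN1A, the p21 gene, fell in EBC-1 (-0.57). IRS2, an adaptor of the insulin receptor, rose in EBC-1 (3.20) and fell in MKN-45 (-0.61). At 48 h PRDX3 fell in EBC-1 (-0.43) and MKN-45 (-0.40), and TRIM63 (-0.60) and KLF6 (-0.53) fell in MKN-45. The treated level of TRIM63 there (4.69) was under the array median.

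Of 31 regulators upstream of FOXO, 26 were tested. In EBC-1, 8 rose and 9 fell at 24 h, near the shares of all genes called higher (31.2%) and lower (28.1%). In MKN-45 7 rose and 13 fell, where 33.4% and 26.9% of all genes did. The medians were 0.06 and -0.11. PIK3R3, a regulatory subunit of PI3 kinase, rose by 2.60 and 3.82. The 14-3-3 genes SFN (-0.75 and -1.37), YWHAH (-0.75 and -0.71) and YWHAQ (-0.64 and -0.55) fell in both lines. The kinase gene SGK1 rose, by 2.02 in EBC-1 at 24 h and by 1.41 in MKN-45 at 48 h. At 48 h, 9 rose and 12 fell in EBC-1, 8 and 12 in MKN-45, and 3 and 4 in HCC827. Of all genes, 32.8% were called higher and 28.9% lower in EBC-1, and 36.4% and 26.2% in MKN-45. The HCC827 counts are near its shares of all genes, 11.6% higher and 10.7% lower. None was called in HCC827 at 24 h with limma (8 at an unadjusted p under 0.05).

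Paralogues and name neighbours of the 10 genes gave 10 tested of 13. In EBC-1 at 24 h 7 rose and TXN fell, and in MKN-45 7 rose and 2 fell. Called higher at 24 h were 31.2% of all genes in EBC-1 and 33.4% in MKN-45, and called lower 28.1% and 26.9%. TP53INP2, the paralogue of TP53INP1 that acts in autophagosome formation, rose by 1.29 in EBC-1 and by 4.52 in MKN-45 at 24 h. The TXNIP relative ARRDC4 rose by 0.93 and 2.10, and the sestrin SESN2 by 0.27 and 1.36. TXN, the thioredoxin that TXNIP binds, was at -0.21 and -0.34, both called lower, and ARRDC2 fell in MKN-45 (-0.22). The cyclin G1 gene CCNG1 rose in EBC-1 at 24 h (0.79) and fell in MKN-45 at 48 h (-0.51). At 48 h, 6 rose and 1 fell in EBC-1, 7 and 2 in MKN-45, and 1 and 1 in HCC827. The last count is at the background of 11.6% higher and 10.7% lower. In EBC-1 and MKN-45, 32.8% and 36.4% of all genes were called higher, and 28.9% and 26.2% lower. None was called in HCC827 at 24 h with limma (4 at an unadjusted p under 0.05).

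Of 25 quiescence and anti-proliferative genes, 22 were tested. In EBC-1, 17 rose and 4 fell at 24 h (median 1.08), and in MKN-45 13 rose and 4 fell (0.33). Of all genes, 31.2% were called higher and 28.1% lower in EBC-1, and 33.4% and 26.9% in MKN-45. HBP1, a repressor of cell cycle genes, rose by 1.99 and 1.62, BTG1 by 2.09 and 2.19, and the MYC antagonist genes MXD4 by 2.11 and 1.81 and MXI1 by 1.78 and 0.31. KLF4 rose in EBC-1 (0.99) and fell in MKN-45 (-1.94), and E2F4 fell in both (-0.78 and -0.66), as did LIN9 (-0.61 and -0.68) and LIN52 (-0.48 and -0.80) of the DREAM complex. LIN54 fell in EBC-1 (-0.68), whereas LIN37 of the same complex rose in EBC-1 (0.29) and, at 48 h, in MKN-45 (0.31). KLF2 fell in MKN-45 at 48 h (-0.73). At 48 h, 17 rose and 3 fell in EBC-1, 15 and 4 in MKN-45, and 12 and 1 in HCC827. Of all genes, 32.8%, 36.4% and 11.6% were called higher in these lines, and 28.9%, 26.2% and 10.7% lower. None was called in HCC827 at 24 h with limma (4 at an unadjusted p under 0.05).

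FOXM1, the forkhead factor of mitotic genes that FOXO factors oppose, went the other way together with its targets. Of the 16 genes, 14 fell and 1 rose in EBC-1 at 24 h (median -2.26), and 15 fell in MKN-45 (-2.37). Called lower at 24 h were 28.1% of all genes in EBC-1 and 26.9% in MKN-45, and called higher 31.2% and 33.4%. FOXM1 changed by -2.48 and -3.42, KIF20A by -2.91 and -3.18, CCNB1 by -3.09 and -2.69, CENPF by -3.06 and -2.53 and CCNB2 by -1.87 and -2.17. The treated level of FOXM1 (4.82 in EBC-1 and 4.34 in MKN-45 at 24 h) was under the array median, so its fall is poorly measured in size. At 48 h this also held for KIF20A in both lines (3.04 and 3.61) and for CENPF in EBC-1 (4.09). The one that rose in EBC-1 was the phosphatase gene CDC25B (0.44), which fell in MKN-45 (-1.02). At 48 h the medians were -3.05 and -3.27. In HCC827 the median was -0.01 at both times, with 2 higher and 1 lower at 48 h and none called at 24 h with limma (2 at an unadjusted p under 0.05). The 48 h counts are near the shares of all genes, 11.6% higher and 10.7% lower. In HCC827 at 48 h FOXM1 itself fell (-0.45, adjusted p = 0.0236), while CCNB2 (0.27) and CDC25B (0.39) rose.

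**Figure D4:**
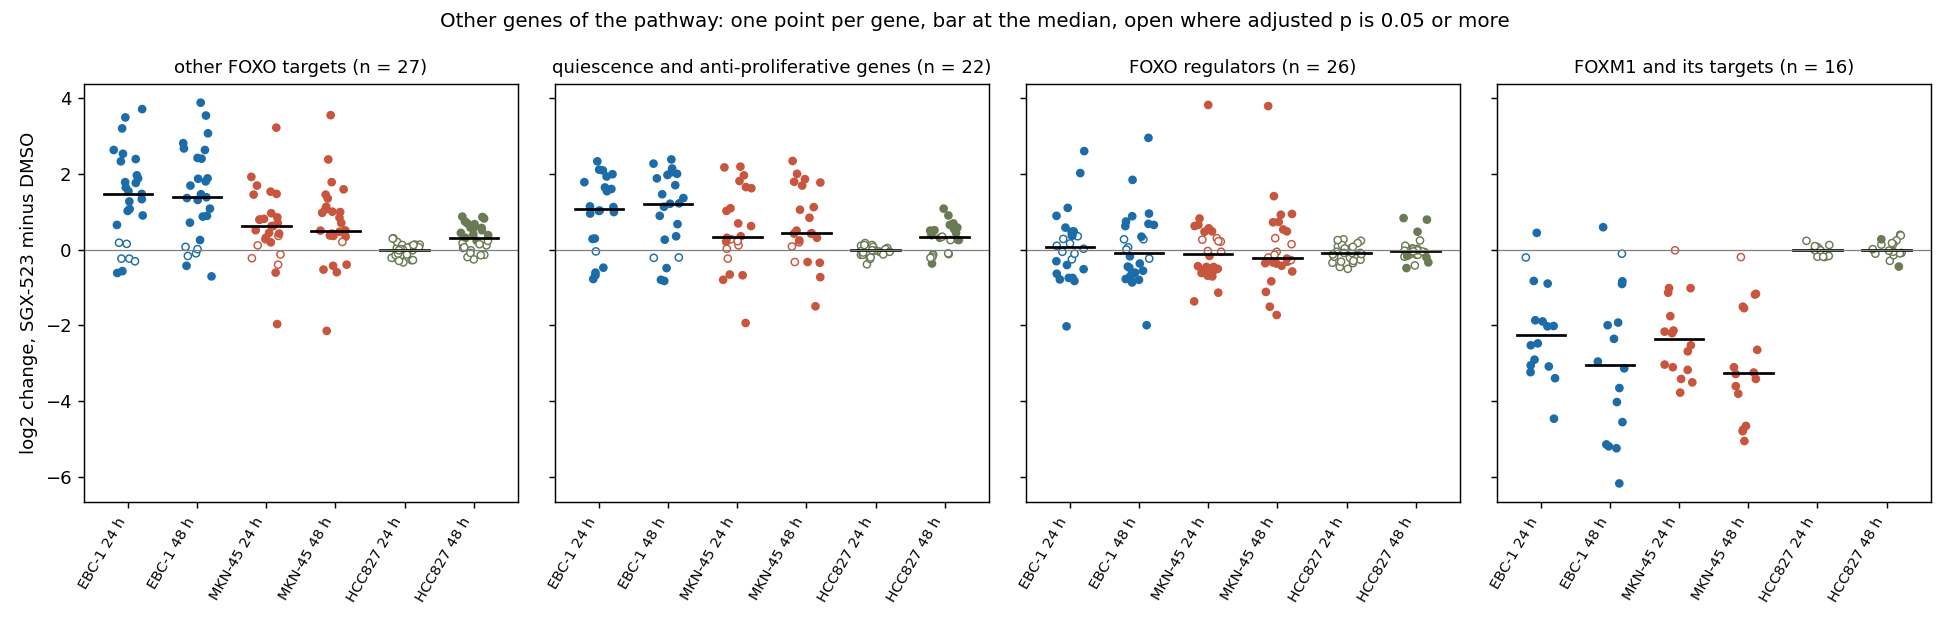
Log2 change with SGX-523 against DMSO for the tested genes of 4 lists in the 6 comparisons (1 point per gene; bar: median; open: adjusted p of 0.05 or more). Medians of the other FOXO targets are 1.47 and 1.38 in EBC-1 and 0.31 in HCC827 at 48 h, while those of the FOXM1 list run from -2.26 to -3.27 in EBC-1 and MKN-45.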

How the data were processed

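The deposited table gives 1 log2 value per probe set and array, normalized by the authors by steps not given in the sources used here. MAS5 is named, with no role, per the submitters' processing notes. Probe sets were named through the platform annotation, updated by Entrez ID to RefSeq symbols: of 49395 probe sets, 44988 had 1 gene, 1832 several and 2473 none. Probe sets under the array median on all but 2 or fewer arrays were dropped, leaving 29684 (27359 with 1 gene), and each gene took its brightest one. The tests used limma 3.58.1 (R 4.3.3; 9 group means, 18 residual degrees of freedom, eBayes with an intensity trend, Benjamini-Hochberg over 12386 genes, threshold 0.05). The p-values measure the spread between arrays called biological replicates, pooled over all groups. In simulated data with the spread of these arrays, 50 of 12386 genes were changed at each fold in EBC-1 at 24 h. All other genes were left at their DMSO means. Of genes changed 1.25, 1.5 and 2-fold, 42%, 78% and 100% were recovered, and 2.44% of calls were false. In the real comparison 31.2% of genes were called higher and 28.1% lower, so these rates may not carry over to it.

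The 10 genes, the lists and the tests were chosen with earlier results of these data known. Named from each list were at most 4 members with the smallest adjusted p in EBC-1 and MKN-45 and members moving against most of the list. FOXM1, SGK1 and the marker genes named were singled out after their values were seen. For FOXO1, FOXO3, FOXO4 and PIK3IP1 the 3 genes of highest Pearson r were named. Alternatives were quantile normalization, median centring, no filter, a filter at the 75th percentile, no trend, a fit per line, the replicate block, the mean of all kept probe sets, array weights, and each array left out.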

Additional observations from a re-analysis of the deposited data

Results flagged for a closer look

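These results are listed because the same contrast gave unequal effects in 2 cell lines by the limma test of the difference, with 3 arrays per group. For EBC-1 minus MKN-45 at 24 h, the differences were 2.09 for FOXO1, 1.04 for CCNG2, 0.52 for TP53INP1 and 0.32 for FOXO3. In the other direction they were -0.67 for SESN1, -0.50 for PIK3IP1 and -0.42 for BCL6. At 48 h, they were 1.92 for FOXO1, 0.88 for CCNG2, 0.34 for FOXO3 and 0.17 for TXNIP, and -0.85 for SESN1, -0.62 for BCL6 and -0.52 for PIK3IP1. Of all genes, 42.1% differed between these lines at 24 h and 49% at 48 h. With the mean of all probe sets, the differences of BCL6 and PIK3IP1 at both times, of TP53INP1 at 24 h and of TXNIP at 48 h were no longer called. The same setting added calls for N4BP2L1 at 24 h (0.68, adjusted p = 0.00166) and TP53INP1 at 48 h (0.29, adjusted p = 0.0399) by limma.

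Against HCC827, 9 of the 10 genes differed in EBC-1 at 24 h and 9 at 48 h, and 9 and 8 in MKN-45. Of all genes, 51.6% and 48.7% differed in EBC-1, and 52.7% and 51.1% in MKN-45. FOXO1 differed from HCC827 by 1.54 and 1.19 in EBC-1 and by -0.55 and -0.73 in MKN-45.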

How the results depend on the processing

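Of the 10 genes' changes under the alternatives that keep all arrays, 1430 kept direction and side of the threshold, 22 lost a call, 35 gained one and 13 reversed. With 1 array left out the numbers were 4800, 29, 30 and 1. Of these 14 reversals, 10 concern DMSO levels against HCC827. With arrays centred on their medians, EBC-1 minus HCC827 became 0.21 for FOXO4 and 0.52 for SESN1, and MKN-45 minus HCC827 0.45 for FOXO4, 0.36 for PIK3IP1 and 0.60 for N4BP2L1. With quantile normalization, SESN1 was 0.38 in EBC-1, and PIK3IP1 0.37 and N4BP2L1 0.57 in MKN-45. With the mean of all kept probe sets, DMSO differences became -0.56 for PIK3IP1 (EBC-1 minus HCC827), -0.17 for BCL6 (MKN-45 minus HCC827) and -0.06 for PIK3IP1 (EBC-1 minus MKN-45), and response differences of EBC-1 minus MKN-45 became 0.16 for BCL6 at 24 h and 0.02 for PIK3IP1 at 48 h. Without HCC827 SGX-523 24 h replicate 3, FOXO4 was 0.25 between 24 h and 48 h in HCC827. The count of called genes among the 10 from 24 h to 48 h in EBC-1, 0 with all arrays, was 2 with quantile normalization, a separate fit per line or array weights and 1 with the mean of probe sets. It ranged from 0 to 2 with 1 array left out, and the count called higher in HCC827 at 24 h from 0 to 1. With array weights, 1 gene (SESN1) was called lower in HCC827 at 48 h. The cause was not tested.

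Over all genes, calls in HCC827 at 48 h (2754) were 1217 with a separate fit, 5465 with array weights and 4648 without HCC827 SGX-523 24 h replicate 3. Those in HCC827 at 24 h (4) were 27 with quantile normalization and between 0 and 1 with 5 other settings. Those from 24 h to 48 h in EBC-1 (1371) were 2829, 3046 and 2972 with a separate fit, with weights and without that replicate. In MKN-45 (3007) they were 4618 with weights and 4918 without it, and in HCC827 (3286) they were 1059 with a separate fit. The labels do not say whether the replicate numbers pair the samples. Of 27 same-numbered pairs within a line, 5 had deviations correlated above 0.1 (range -0.197 to 0.159). With 3 arrays per group, such values cannot show whether samples were paired. With the replicate block, 9 of the 10 genes were called higher in EBC-1 and in MKN-45 at 24 h and 7 in HCC827 at 48 h, the counts without it, and all genes called in HCC827 at 24 h went from 4 to 0.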
